A study of Mus musculus with 14 samples.

Results

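The genes described here encode liver enzymes of drug and aldehyde metabolism outside the cytochrome P450 family. They were the genes on the array whose single platform symbol begins with Ugt, Sult, Ces, Aldh, Adh, Akr or Fmo followed by a digit. Within these families symbols alone decided which genes were members, but the families were chosen with earlier results of these data known. Each gene was read by its probe set with the highest mean over all arrays. There were 68 such genes of 12394 genes with a single symbol on the array: 17 Aldh, 14 Akr, 11 Sult, 9 Ces, 9 Ugt, 4 Adh and 4 Fmo genes. A further 6 probe sets of these families carried several symbols and were left out, and no gene of the Ugt1 family was among the members.

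The RNA came from livers of C57BL/6J mice labelled DIO, for diet-induced obesity, in a study of Jnk1 knockdown in the liver, and was read on a 1-colour Affymetrix mouse array, 1 array per sample. Jnk1 shRNA livers (n = 5) had received an adenovirus carrying a short hairpin RNA against Jnk1, the stress-activated protein kinase encoded by Mapk8. GFP shRNA livers (n = 4) had received an adenovirus with a hairpin against green fluorescent protein, which controls for virus and hairpin expression. Livers of the third group (n = 5) are labelled vehicle. All 3 groups share the strain and the obese state, so no lean liver is part of the comparison. The labels give no viral dose, time after infection, sex, age or promoter of the hairpin, and do not say that each sample came from a separate mouse. The p-values therefore measure the spread between these samples.

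In the liver, lipid-soluble drugs, hormones, bile acids and food chemicals are made soluble in steps. Alcohol dehydrogenases (Adh) oxidise alcohols to aldehydes, aldehyde dehydrogenases (Aldh) oxidise aldehydes to acids, and aldo-keto reductases (Akr) work the other way, reducing aldehydes and ketones, steroids among them. Flavin-containing monooxygenases (Fmo) add oxygen to nitrogen and sulfur atoms, and carboxylesterases (Ces) cut esters and amides, including stored and dietary lipids. UDP-glucuronosyltransferases (Ugt) and sulfotransferases (Sult) then attach a sugar or a sulfate group. Many of these genes respond to the nuclear receptors CAR and PXR, to circadian factors such as DBP, and, in rodents, to the sex-dependent pattern of growth hormone.

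Values below are log2 of the quantile-normalised linear probe set intensity. A change is a difference of mean log2 intensity with its standard error (SE) from limma fitted to all 14 arrays. A probe set was called higher or lower at an adjusted p under 0.05, with Benjamini-Hochberg adjustment over the 13575 probe sets that passed a filter on low mean signal. Of the 68 members, 55 passed this filter. The 13 that did not were Aldh1a2, Aldh1a3, Aldh3a1, Akr1b10, Akr1c18, Akr1cl, Ugt8a, Sult1c1, Sult1e1, Sult2a2, Sult2b1, Sult3a1 and Sult4a1. Mapk8, the target of the hairpin, read 5.88 to 6.36 in the Jnk1 shRNA group, 7.31 to 7.51 with GFP shRNA and 7.22 to 7.54 in vehicle livers. This left 40.2% of the GFP shRNA level (adjusted p = 3.5e-07), and the ranges did not overlap. Of the other 2 probe sets of Mapk8, 1 was at 46% of the GFP shRNA level (adjusted p = 0.000819) and 1 at 92.1% with overlapping ranges (0.561). The Jnk1 shRNA arrays also differed in quality measures. Their spike-in level, read from bacterial control probe sets, averaged 8.36 ± 0.32 on the log2 scale (SD, n = 5), against 8.91 ± 0.08 (n = 4) with GFP shRNA and 8.91 ± 0.10 (n = 5) in vehicle livers. The exact two-sided permutation p was 0.0159 against GFP shRNA and 0.00794 against vehicle. It ran from 7.89 to 8.76 with Jnk1 shRNA, 8.83 to 9.01 with GFP shRNA and 8.77 to 9.03 in vehicle livers. The Jnk1 shRNA arrays thus lay below all others. A fit with the spike-in level as covariate therefore cannot tell that level apart from the hairpin, also where a call was lost. The 99th percentile of the deposited intensities ran from 2407 to 2604 with Jnk1 shRNA, against 2597 to 2945 with GFP shRNA and 2629 to 3005 in vehicle livers. The ratio of the 3′ to the 5′ Gapdh probe set averaged 0.73 ± 0.02 (SD) with Jnk1 shRNA, 0.69 ± 0.02 with GFP shRNA and 0.70 ± 0.03 in vehicle livers. Its exact two-sided permutation p was 0.0159 against GFP shRNA and 0.0873 against vehicle. Among the controls, GFP shRNA array 2 stood apart. Its median deposited intensity was 58.34, the highest of all arrays, against 45.78 to 47.83 on the other GFP shRNA arrays. Scaling to the same median therefore lowered its values most. Its mean correlation with its own group was 0.942, the lowest of all arrays, against 0.964 to 0.967 for the other GFP shRNA arrays. Small differences of very bright members depended on the scaling.

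Of the 68 members, 57 had an entry in a table of RefSeq promoters (build GRCm38.p6), and 6 of them are printed here. They belong to members on which the results turn: Ugt2a3 and Ugt2b1 fell strongly, Ugt2b34, the neighbour of Ugt2b1, rose, Sult1c2 rose most of the members above the filter, Ces1g fell beside Ces1f, which rose, and Akr1c18 was well above the filter intensity only in the Jnk1 shRNA livers. Each run is the 250 bases upstream of the annotated start, read 5′ to 3′ on the gene's own minus strand. Capitals mark any of 4 motifs on either strand: the D-box TTATGTAA, bound by DBP and its relatives; the HNF1 half-site GTTAAT; the nuclear receptor half-site AGGTCA; and the antioxidant response element core TGACNNNGC.
Akr1c18 (chr13:4150647-4150896): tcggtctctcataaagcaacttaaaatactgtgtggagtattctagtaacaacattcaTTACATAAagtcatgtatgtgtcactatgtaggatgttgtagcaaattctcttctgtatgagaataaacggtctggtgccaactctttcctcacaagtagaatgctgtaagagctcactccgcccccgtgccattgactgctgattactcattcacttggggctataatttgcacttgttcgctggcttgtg
Ugt2a3 (chr5:87337196-87337445): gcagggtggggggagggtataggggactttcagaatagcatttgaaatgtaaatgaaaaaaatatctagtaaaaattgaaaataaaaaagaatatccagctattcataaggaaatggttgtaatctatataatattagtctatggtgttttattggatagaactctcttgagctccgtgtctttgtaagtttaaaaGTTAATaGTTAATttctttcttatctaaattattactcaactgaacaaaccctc
Ugt2b1 (chr5:86926504-86926753): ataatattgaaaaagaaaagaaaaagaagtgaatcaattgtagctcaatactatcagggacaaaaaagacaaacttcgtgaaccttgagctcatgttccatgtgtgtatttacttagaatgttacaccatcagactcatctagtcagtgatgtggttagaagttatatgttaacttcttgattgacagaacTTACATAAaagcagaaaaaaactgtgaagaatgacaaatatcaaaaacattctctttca
Ugt2b34 (chr5:86906938-86907187): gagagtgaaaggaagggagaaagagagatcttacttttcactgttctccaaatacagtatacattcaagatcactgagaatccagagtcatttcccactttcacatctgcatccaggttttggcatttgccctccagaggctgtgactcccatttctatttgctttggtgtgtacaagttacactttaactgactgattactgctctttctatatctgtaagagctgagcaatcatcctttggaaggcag
Sult1c2 (chr17:53845959-53846208): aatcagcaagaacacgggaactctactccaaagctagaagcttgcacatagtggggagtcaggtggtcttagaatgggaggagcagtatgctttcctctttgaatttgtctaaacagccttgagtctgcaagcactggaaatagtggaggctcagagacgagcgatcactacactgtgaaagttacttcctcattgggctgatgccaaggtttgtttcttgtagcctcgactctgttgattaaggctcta
Ces1g (chr8:93337210-93337459): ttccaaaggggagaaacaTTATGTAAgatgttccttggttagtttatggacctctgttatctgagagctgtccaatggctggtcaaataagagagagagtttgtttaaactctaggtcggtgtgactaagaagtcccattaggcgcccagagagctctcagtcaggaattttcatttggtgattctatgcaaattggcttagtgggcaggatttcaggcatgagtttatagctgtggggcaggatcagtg
The D-box lay 59 bases before the start of Ugt2b1, 192 before that of Akr1c18 and 232 before that of Ces1g. Ugt2a3 held a pair of HNF1 half-sites, 54 and 47 bases before its start. No letters of the 4 motifs were found in these windows of Ugt2b34 and Sult1c2, and the marked motifs did not overlap.

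The 4 motifs and 7 others were searched in the same window of the 57 member genes and of all 32851 promoters of the table, with the members' changes already known. The D-box was present in 5 of 57 member genes (8.77%), namely Akr1c18, Ces1c, Ces1e, Ces1g and Ugt2b1, and in 0.819% of all promoters. AGGTCA was present in 28.1% of the member genes and 14% of all promoters, GTTAAT in 10.5% and 6.43%, and TGACNNNGC in 5.26% and 10.2%. The E-box CACGTG was in 5.26% of member genes and 6.02% of all promoters, TATAAA in 15.8% and 12.4%, and TTCNNNGAA in 7.02% of each. The sequence GCGTG was in 17.5% of member genes and 28.2% of all promoters, and TGTTCT in 15.8% and 16.1%. CAAAGTCCA and the DR1 repeat, a pair of nuclear receptor half-sites, were in 0 member genes, and in 0.384% and 0.0335% of all promoters. The member shares count genes with a match in any of their promoters, while the shares over the table count promoters, so the 2 are not in the same unit. Ces1c, Ces1e and Ces1g lie in the same run of Ces1 genes on chromosome 8, so their D-box matches may not be independent. These are matches of letters and say nothing of binding. The D-box was found in the promoters of Ugt2b1, Ces1c and Ces1g, which fell, of Akr1c18, which was higher, and of Ces1e, which was not called.

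Against GFP shRNA, 16 of the 55 members were higher in the Jnk1 shRNA livers (29.1%) and 14 were lower (25.5%). Over all 8027 genes tested the shares were 17.7% higher and 16.5% lower. The ranges of the Jnk1 shRNA and GFP shRNA arrays did not overlap for 27 members (49.1%), against 28.9% of all genes. The median change of the members was 0.04 and their median size of change 0.37, against -0.02 and 0.27 over all genes. Against vehicle, 18 members were higher and 18 lower (32.7% each), where 19.3% of all genes were higher and 19.3% lower. Ranges did not overlap for 29 members (52.7%), against 28.9% of all genes. With arrays scaled to the same median in place of quantile normalization, 18 members were higher and 8 lower against GFP shRNA, and calls over all probe sets were 72.3% higher rather than 52.3%. That scaling put the median of all probe sets at 0.09 rather than -0.01.

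GFP shRNA against vehicle gave 0 members higher and 1 lower, Ces1f, where 2.18% of all genes were higher and 0.623% lower. The 2 groups did not overlap for 4 members (7.27%), against 6.59% of all genes. In all, 36 members were called in one or both Jnk1 comparisons, 30 in both and 6 against vehicle only, and the 30 had the same direction in both. The Jnk1 shRNA arrays are shared by those comparisons, so their likeness is no independent support. In whole liver, fewer cells of a type and less RNA per cell cannot be told apart.

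**Figure D1:**
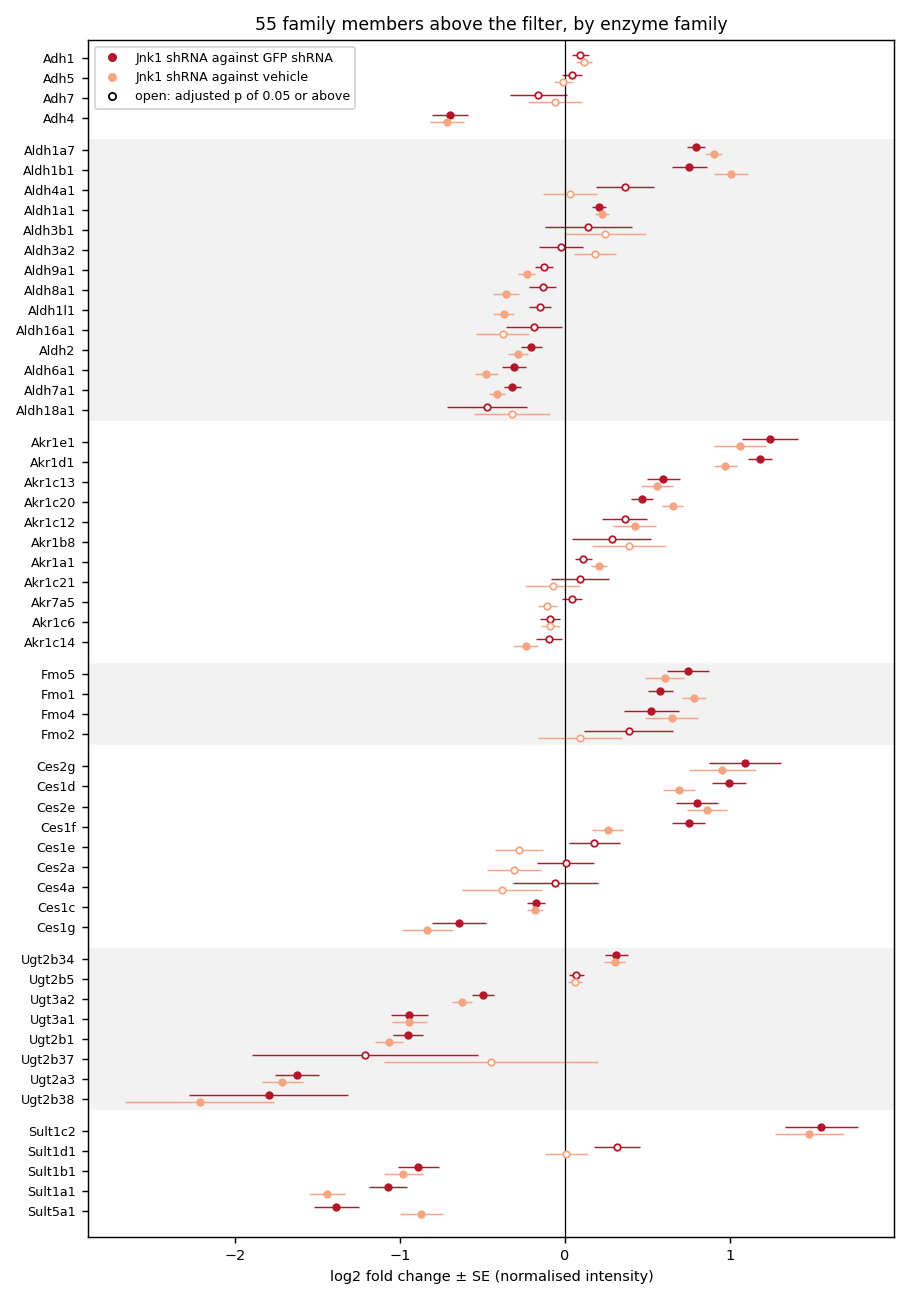
Log2 fold change with its SE (x axis) of the 55 members above the filter, grouped by family and ordered within it, for Jnk1 shRNA against GFP shRNA (dark) and against vehicle (light); filled points were called. Fmo members lie right of 0 and most Ugt and Sult members left of it, from -1.80 for Ugt2b38 to 1.56 for Sult1c2 against GFP shRNA.

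The families differed in how their called members divided. Of the kept members, called higher and lower against GFP shRNA, Fmo had 3 and 0 of 4, Akr 4 and 0 of 11, and Ces 4 and 2 of 9. Kept members of the conjugating families leaned the other way, with 1 and 5 of 8 for Ugt and 1 and 3 of 5 for Sult. The Sult counts leave out 6 of 11 members under the filter, of which Sult2a2 was higher by 4.48 in a fit without it. Aldh had 3 and 3 of 14 (21.4% each) and Adh 0 and 1 of 4. Over all genes 17.7% were higher and 16.5% lower, so the Aldh shares lay near those of all genes. Family medians were 0.55 for Fmo, 0.28 for Akr, 0.18 for Ces, -0.06 for Adh, -0.13 for Aldh, -0.89 for Sult and -0.95 for Ugt. Against vehicle the counts were the same for Adh, Fmo, Ces, Ugt and Sult, while Akr had 6 higher and 1 lower and Aldh 3 higher and 6 lower. There, 19.3% of all genes were higher and 19.3% lower. Differences between families were not tested, since the families hold few genes and some members are neighbours in the genome.

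**Figure D2:**
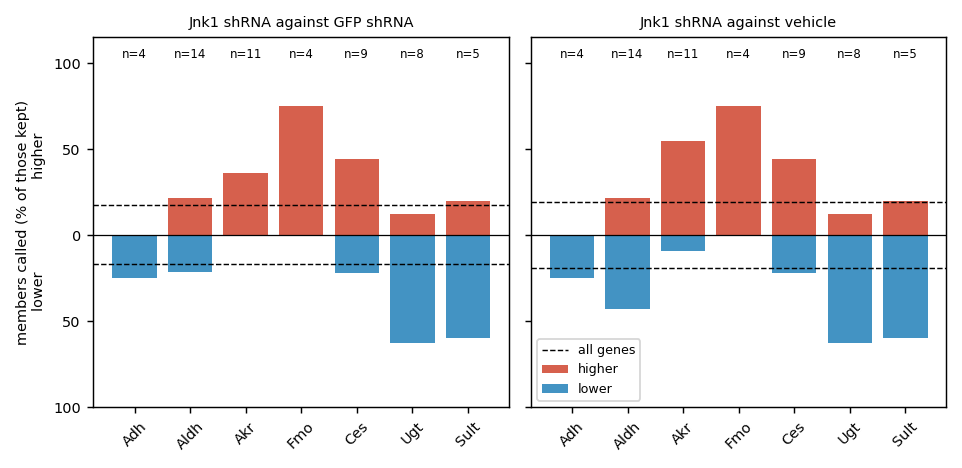
Share of each family's kept members called higher (up) or lower (down) in Jnk1 shRNA livers, against GFP shRNA (left) and vehicle (right); n is the number kept and dashed lines give the shares over all 8027 genes. The Ugt and Sult bars reach lowest and the Fmo bars highest.

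Among the alcohol dehydrogenases, Adh4 alone was called. Adh4 oxidises retinol and longer alcohols. Adh4 read 9.60, 9.34, 8.92, 9.36 and 9.51 on the Jnk1 shRNA arrays, 10.02, 9.99, 10.09 and 10.07 with GFP shRNA and 9.97, 10.04, 10.27, 10.03 and 10.01 in vehicle livers. Each Jnk1 shRNA array lay below every other array, and Adh4 fell by 0.70 ± 0.11 (SE) against GFP shRNA (adjusted p = 0.000128) and by 0.72 ± 0.10 against vehicle (4.02e-05). Adh1, the main ethanol-oxidising enzyme of liver named as the family's highest mean signal, read 12.18 to 12.36 with Jnk1 shRNA, 12.08 to 12.26 with GFP shRNA and 12.04 to 12.22 in vehicle livers. These ranges overlapped, and its change of 0.09 ± 0.05 against GFP shRNA was not called (adjusted p = 0.195) and was below 0 in the values as deposited (-0.21). Adh5, which oxidises glutathione-bound formaldehyde, changed by 0.04 ± 0.06, and Adh7 by -0.16 ± 0.17. Adh7, Adh1, Adh4 and Adh5 lie in this order on chromosome 3, so Adh4 changed between family members that were not called. Other genes lie between Adh1 and Adh4.

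Aldehyde dehydrogenases were called in both directions, against GFP shRNA at shares near those of all genes. Aldh1a7, a rodent relative of the retinaldehyde-oxidising Aldh1a1, was the clearest. The arrays gave Aldh1a7 values of 11.56, 11.69, 11.67, 11.62 and 11.62 with Jnk1 shRNA, 10.83, 10.78, 10.89 and 10.84 with GFP shRNA and 10.72, 10.80, 10.68, 10.60 and 10.85 in vehicle livers. The Jnk1 shRNA arrays stood above all others, and the fold was 1.74-fold against GFP shRNA (log2 0.80 ± 0.05, adjusted p = 4.87e-08). Aldh1b1, a mitochondrial enzyme that acts on acetaldehyde, also rose. In Jnk1 shRNA livers Aldh1b1 was at 8.01, 7.95, 8.12, 8.08 and 8.18, against 7.63, 7.11, 7.14 and 7.37 in GFP shRNA livers and 7.15, 7.13, 6.92, 7.06 and 7.03 in vehicle livers. Its change was 0.76 ± 0.11 against GFP shRNA (adjusted p = 5.64e-05) and 1.01 ± 0.10 against vehicle (1.12e-06), with no overlap in either. With only the Jnk1 shRNA array of the highest spike-in level kept, the first value was 0.63 and not called (0.0725). Aldh1a1, next to Aldh1a7 on chromosome 19 and named as the family's highest mean signal, read 11.88 to 11.96 with Jnk1 shRNA, 11.65 to 11.82 with GFP shRNA and 11.64 to 11.75 in vehicle livers. The difference of 0.21 ± 0.04 against GFP shRNA was called (adjusted p = 0.00169) after quantile normalization, but not with arrays scaled to the same median, and in the values as deposited it was -0.04. Aldh1a1 thus has no settled direction here.

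The aldehyde dehydrogenases that fell include enzymes of amino acid breakdown. Aldh7a1, of lysine breakdown, had the smallest p among them. Signals of Aldh7a1 were 10.61, 10.47, 10.49, 10.47 and 10.61 with Jnk1 shRNA, against 10.92, 10.85, 10.83 and 10.80 with GFP shRNA and 10.99, 10.94, 10.93, 10.89 and 10.97 in vehicle livers. It fell by 0.32 ± 0.05 against GFP shRNA (adjusted p = 0.000167) and by 0.41 ± 0.05 against vehicle (5.1e-06). The groups did not overlap, but with arrays scaled to the same median the first value was -0.15 and not called. Aldh6a1, of valine breakdown, fell by 0.31 ± 0.07 and 0.48 ± 0.07 (adjusted p = 0.00436 and 5.2e-05 against GFP shRNA and vehicle). The first value was -0.14 with arrays scaled to the same median and -0.24 with the spike-in covariate, and not called in either. Aldh2, the mitochondrial enzyme that clears the acetaldehyde made from ethanol, fell by 0.20 ± 0.06 and 0.29 ± 0.06 on its brightest probe set (0.0229 and 0.00145). The call against GFP shRNA was lost without GFP shRNA array 1 or 2 or Jnk1 shRNA array 4 or 5, and after equal-median scaling (-0.25, 0.0929). On its other 2 probe sets it fell more, by 0.87 ± 0.20 and 0.82 ± 0.18 against GFP shRNA, with no overlap. The probe sets thus agreed in direction and not in size.

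A further 3 aldehyde dehydrogenases were called against vehicle only: Aldh1l1, of folate metabolism (-0.37 ± 0.06, adjusted p = 0.000214), Aldh8a1, of tryptophan breakdown (-0.36 ± 0.08, 0.00179), and Aldh9a1, of carnitine synthesis (-0.23 ± 0.05, 0.00244). Against GFP shRNA their values were -0.15 ± 0.07, -0.14 ± 0.08 and -0.13 ± 0.06. For none of these 3 was the difference between GFP shRNA and vehicle called (adjusted p = 0.107, 0.205 and 0.389), so no difference between the 2 comparisons is shown. The calls of Aldh8a1 and Aldh9a1 were lost after equal-median scaling and with the spike-in covariate. The other 5 kept members, Aldh3a2, Aldh3b1, Aldh4a1, Aldh16a1 and Aldh18a1, ranged from -0.48 to 0.37 against GFP shRNA and were not called in any comparison. Aldh4a1, of proline breakdown, read 9.32, 8.28, 9.22, 8.63 and 8.94 with Jnk1 shRNA, which overlapped both other groups.

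The aldo-keto reductases called against GFP shRNA were all higher. Akr1d1 is the steroid 5β-reductase, an enzyme of bile acid synthesis that also inactivates steroid hormones. Akr1d1 read 10.36, 10.58, 10.45, 10.48 and 10.45 on the Jnk1 shRNA arrays, 9.33, 9.30, 9.16 and 9.32 with GFP shRNA and 9.43, 9.33, 9.47, 9.54 and 9.70 in vehicle livers. The gap between the lowest Jnk1 shRNA array and the highest other array was wider than the range within any group, and Akr1d1 was 2.27-fold higher than with GFP shRNA (log2 1.18 ± 0.07, adjusted p = 1.91e-08) and 0.97 ± 0.07 higher on the log2 scale than with vehicle (3.42e-08). Akr1e1 reduces 1,5-anhydrofructose, a sugar from glycogen breakdown. The arrays gave Akr1e1 values of 8.72, 8.85, 9.12, 8.63 and 8.49 with Jnk1 shRNA, 7.49, 7.50, 7.44 and 7.66 with GFP shRNA and 7.09, 7.85, 7.67, 8.18 and 7.72 in vehicle livers. It was 2.37-fold higher than with GFP shRNA (log2 1.24 ± 0.17, adjusted p = 3.77e-05), and vehicle array 4, the highest control, still lay below every Jnk1 shRNA array. Akr1e1 varied more among vehicle arrays, 7.09 to 8.18, than among GFP shRNA arrays, 7.44 to 7.66.

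The Akr1c genes form a cluster on chromosome 13, in the order Akr1c14, Akr1c18, Akr1c13, Akr1c12, Akr1c6, Akr1c20, Akr1c21 and Akr1e1. Akr1c13 rose by 0.60 ± 0.10 against GFP shRNA (adjusted p = 0.000259), with arrays at 9.76 to 10.24 with Jnk1 shRNA, 9.23 to 9.53 with GFP shRNA and 9.23 to 9.52 in vehicle livers. Akr1c20 rose by 0.47 ± 0.07 against GFP shRNA (adjusted p = 5.9e-05) and by 0.65 ± 0.06 against vehicle (7.03e-07), with Jnk1 shRNA arrays at 10.21 to 10.45, GFP shRNA arrays at 9.78 to 10.01 and vehicle arrays at 9.61 to 9.79. Its second, dimmer probe set went the other way (-0.28 ± 0.14 against GFP shRNA, not called, and -0.51 ± 0.13 against vehicle, called lower, adjusted p = 0.00504), and the median of the 2 probe sets was not called (0.09). The direction of Akr1c20 is therefore uncertain. Akr1c6, a 17β-hydroxysteroid dehydrogenase of mouse liver named as the family's highest mean signal, was not called (-0.09 ± 0.06 in each Jnk1 comparison). It read 12.04 to 12.09 on 4 of 5 Jnk1 shRNA arrays and 11.78 on array 3, against 12.07 to 12.13 with GFP shRNA and 12.02 to 12.21 in vehicle livers. In the values as deposited its change against GFP shRNA was -0.35 and called.

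Of the remaining cluster members, Akr1c12 was called against vehicle (0.42 ± 0.13, adjusted p = 0.0163) and not against GFP shRNA (0.36 ± 0.14, 0.0529). Akr1c14, a 3α-hydroxysteroid dehydrogenase, was called lower against vehicle (-0.24 ± 0.08, 0.0218) and gave -0.10 ± 0.08 against GFP shRNA. That call was lost without vehicle array 1 or Jnk1 shRNA array 1 or 3, and with the spike-in covariate the value was 0.05. The call of Akr1c12 was also lost with the covariate (0.56, 0.0712). Akr1c21 gave 0.09 ± 0.18 and was not called. Outside the cluster, Akr1a1, the general aldehyde reductase, was higher than with vehicle (0.21 ± 0.05, 0.00226) and gave 0.11 ± 0.05 against GFP shRNA (0.0933), where 2 of its other probe sets were called higher. Against vehicle it gave -0.05 in the values as deposited and -0.02 after equal-median scaling. Akr7a5 and Akr1b8 were not called in any comparison.

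**Figure D3:**
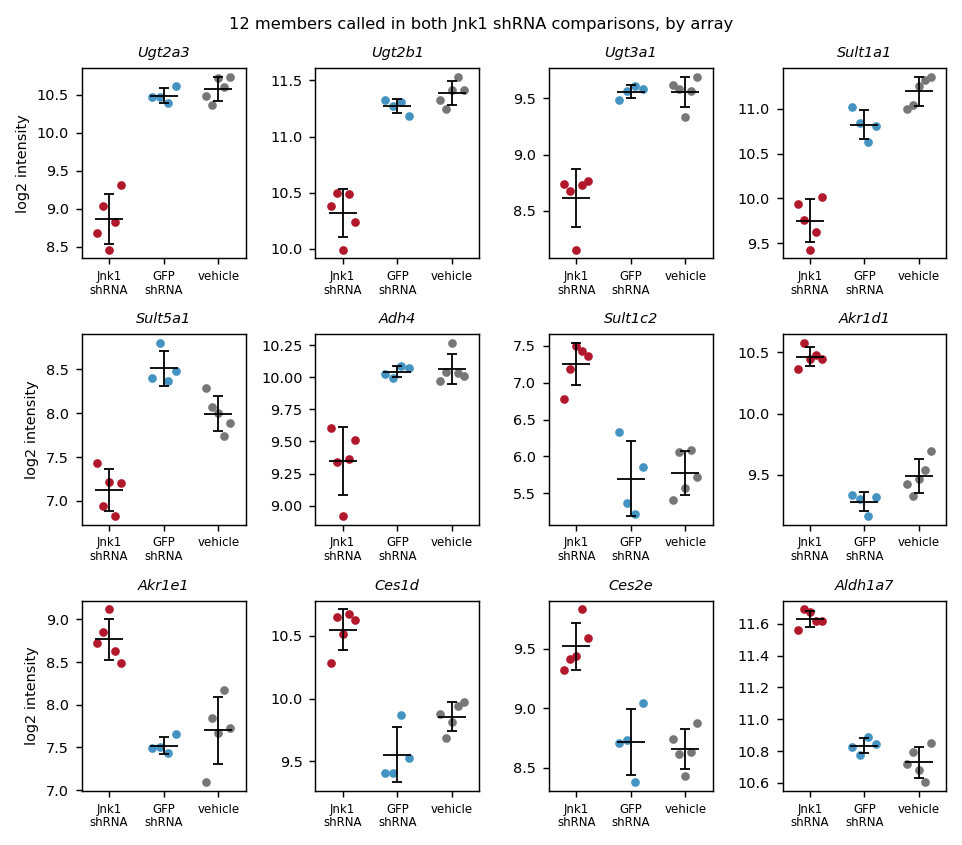
Log2 intensity (y axis) of 12 members by array, with Jnk1 shRNA (n = 5) left, GFP shRNA (n = 4) next and vehicle (n = 5) right; bars give mean and SD, and the y axes do not start at 0. In each panel the Jnk1 shRNA points lie apart from all control points, below them for the first 6 genes and above them for the last 6.

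All called flavin-containing monooxygenases were higher in the Jnk1 shRNA livers. Fmo1, which oxidises nitrogen- and sulfur-containing drugs, was the steadiest. In Jnk1 shRNA livers Fmo1 was at 10.34, 10.59, 10.51, 10.45 and 10.49, against 9.76, 9.78, 10.01 and 10.03 in GFP shRNA livers and 9.72, 9.56, 9.69, 9.66 and 9.84 in vehicle livers. No ranges overlapped, and the change was 0.58 ± 0.08 against GFP shRNA (adjusted p = 2.8e-05) and 0.78 ± 0.07 against vehicle (4.52e-07). Fmo5, named as the family's highest mean signal, inserts oxygen beside ketones. Signals of Fmo5 were 11.14, 10.67, 11.21, 10.89 and 10.84 with Jnk1 shRNA, against 10.53, 10.04, 10.18 and 10.05 with GFP shRNA and 10.41, 10.53, 10.43, 10.30 and 10.03 in vehicle livers. Every Jnk1 shRNA value lay above every control value (0.75 ± 0.13 against GFP shRNA, adjusted p = 0.000275; 0.61 ± 0.12 against vehicle, 0.000736). With each array's spike-in level added as covariate these changes were 0.39 and 0.25 and neither was called. Fmo4, next to Fmo1 on chromosome 1, gave 0.52 ± 0.17 (adjusted p = 0.0252) and 0.65 ± 0.16 (0.00422). The first call was lost without GFP shRNA array 3 (0.37), GFP shRNA array 5 or Jnk1 shRNA array 5, and both calls were lost with the spike-in covariate, where the changes were of like size (0.50 and 0.62, adjusted p = 0.241 and 0.118). Fmo2, mainly a lung enzyme, was dim and not called (0.39 ± 0.27 against GFP shRNA).

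Carboxylesterases rose and fell side by side. The Ces1 genes Ces1c, Ces1d, Ces1e, Ces1f and Ces1g neighbour each other on chromosome 8. Ces1d, a hydrolase of stored triacylglycerol in mouse liver, rose. Ces1d read 10.28, 10.65, 10.51, 10.68 and 10.63 on the Jnk1 shRNA arrays, 9.41, 9.40, 9.87 and 9.52 with GFP shRNA and 9.87, 9.69, 9.81, 9.94 and 9.97 in vehicle livers. Its lowest Jnk1 shRNA array was above the highest control array, and it was 2-fold higher than with GFP shRNA (log2 1.00 ± 0.10, adjusted p = 2.64e-06) and 0.69 ± 0.10 higher on the log2 scale than with vehicle (3.33e-05). Of its other 2 probe sets, 1 gave 0.98 ± 0.11 and 1 gave 0.62 ± 0.21 against GFP shRNA, both called.

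Ces1f, a related lipid hydrolase, was the only member called between GFP shRNA and vehicle. The arrays gave Ces1f values of 10.49, 10.46, 10.60, 10.56 and 10.42 with Jnk1 shRNA, 9.81, 9.47, 9.88 and 9.87 with GFP shRNA and 9.96, 10.18, 10.33, 10.29 and 10.48 in vehicle livers. GFP shRNA arrays lay below all vehicle arrays (-0.49 ± 0.10, adjusted p = 0.0123), and Jnk1 shRNA arrays lay above all GFP shRNA arrays (0.75 ± 0.10, 2.89e-05). Jnk1 shRNA and vehicle overlapped (0.26 ± 0.09, 0.0381), and this last call was lost in 6 of 14 fits with 1 array left out: vehicle array 1 (0.19), 2 or 4, or Jnk1 shRNA array 1, 3 or 4. That call was also lost in the values as deposited (0.21, adjusted p = 0.151) and after equal-median scaling (0.24, 0.282). The same held with the spike-in covariate (0.28, 0.226), without the filter (0.0658) and without the intensity trend (0.0677). The call between GFP shRNA and vehicle was lost when only those 2 groups were fitted, with the same difference of -0.49 (adjusted p = 0.0543).

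Ces1g, an esterase of liver lipid metabolism in the mouse, fell. In Jnk1 shRNA livers Ces1g was at 8.45, 8.74, 7.87, 8.44 and 8.71, against 9.02, 9.13, 9.05 and 9.15 in GFP shRNA livers and 9.38, 8.77, 9.39, 9.36 and 9.50 in vehicle livers. The Jnk1 shRNA arrays lay below every control array, although vehicle array 2, at 8.77, came close to the highest of them, at 8.74. The change was -0.64 ± 0.16 against GFP shRNA (adjusted p = 0.00636) and -0.83 ± 0.15 against vehicle (0.000439), and was -0.39 and -0.58 and not called with the spike-in covariate. With arrays scaled to the same median the change against GFP shRNA was -0.41 and not called (0.1). Ces1c, an esterase secreted into mouse plasma and named as the family's highest mean signal, read 11.88 to 12.05 with Jnk1 shRNA, 12.07 to 12.21 with GFP shRNA and 12.03 to 12.25 in vehicle livers. Its fall of 0.17 ± 0.05 against GFP shRNA (adjusted p = 0.0187) was not called without GFP shRNA array 3 (-0.15, 0.0649) or with the spike-in covariate (-0.15, 0.238). It was also not called with arrays scaled to the same median (-0.27, 0.16), without the filter (0.0568) or without the intensity trend (0.0831). Ces1e was not called (0.18 ± 0.15 against GFP shRNA).

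The Ces2 genes, whose enzymes prefer small acyl groups, lie further along chromosome 8. Signals of Ces2e were 9.32, 9.41, 9.44, 9.83 and 9.59 with Jnk1 shRNA, against 8.71, 8.73, 8.38 and 9.05 with GFP shRNA and 8.75, 8.61, 8.43, 8.63 and 8.88 in vehicle livers. Ces2e was thus higher on every Jnk1 shRNA array (0.80 ± 0.13 against GFP shRNA, adjusted p = 0.000182; 0.86 ± 0.12 against vehicle, 3.84e-05). With only the Jnk1 shRNA array of the highest spike-in level kept, the first value was 0.69 and not called (0.0662). Ces2g was more variable. Ces2g read 8.12, 6.96, 7.83, 7.11 and 7.64 on the Jnk1 shRNA arrays, 6.20, 6.83, 6.38 and 6.36 with GFP shRNA and 6.96, 6.67, 6.56, 6.21 and 6.48 in vehicle livers. It was higher by 1.09 ± 0.22 than with GFP shRNA (adjusted p = 0.00114), and against vehicle the ranges met at 6.96. With the spike-in covariate Ces2g gave 0.42 and 0.28 and was not called. Ces2a gave 0.00 ± 0.18 and Ces4a -0.06 ± 0.26 against GFP shRNA, and neither was called.

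Glucuronosyltransferases fell in larger steps. Ugt2a3, of which the human counterpart acts on bile acids, had the smallest p of the family. The arrays gave Ugt2a3 values of 8.68, 9.04, 8.46, 8.83 and 9.31 with Jnk1 shRNA, 10.47, 10.47, 10.40 and 10.62 with GFP shRNA and 10.49, 10.37, 10.71, 10.60 and 10.74 in vehicle livers. The highest Jnk1 shRNA array was more than 1 below the lowest control array. Ugt2a3 was at 32.4% of the GFP shRNA level (-1.62 ± 0.13, adjusted p = 2.89e-07) and at 30.5% of the vehicle level (-1.71 ± 0.13, 4.06e-08). Ugt2b1, a steroid- and drug-conjugating enzyme, followed. In Jnk1 shRNA livers Ugt2b1 was at 10.38, 10.50, 9.99, 10.49 and 10.24, against 11.33, 11.27, 11.31 and 11.19 in GFP shRNA livers and 11.33, 11.25, 11.41, 11.53 and 11.41 in vehicle livers. It was at 51.6% of the GFP shRNA level (-0.95 ± 0.09, 1.14e-06), with no overlap.

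Ugt3a1 and Ugt3a2, neighbours on chromosome 15 that transfer sugars other than glucuronic acid in humans, fell together. Signals of Ugt3a1 were 8.74, 8.68, 8.16, 8.73 and 8.77 with Jnk1 shRNA, against 9.48, 9.56, 9.61 and 9.58 with GFP shRNA and 9.62, 9.58, 9.34, 9.57 and 9.69 in vehicle livers. Ugt3a2 read 10.37, 10.39, 10.17, 10.39 and 10.40 on the Jnk1 shRNA arrays, 10.92, 10.78, 10.94 and 10.72 with GFP shRNA and 10.995, 10.89, 10.95, 11.07 and 10.93 in vehicle livers. For both genes every Jnk1 shRNA array was below every control array. Ugt3a1 changed by -0.94 ± 0.11 (adjusted p = 9.96e-06) and Ugt3a2 by -0.50 ± 0.06 (2.43e-05) against GFP shRNA. With arrays scaled to the same median Ugt3a2 gave -0.33 and was not called (0.0614).

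The Ugt2 genes lie on chromosome 5 in the order Ugt2b34, Ugt2b1, Ugt2b5, Ugt2b37, Ugt2a3 and Ugt2b38, and they did not move as one. Ugt2b34 rose. The arrays gave Ugt2b34 values of 11.26, 11.56, 11.16, 11.40 and 11.44 with Jnk1 shRNA, 11.01, 11.13, 11.03 and 11.05 with GFP shRNA and 11.11, 11.09, 11.11, 10.99 and 10.999 in vehicle livers. The change was 0.31 ± 0.07 against GFP shRNA (adjusted p = 0.00245), opposite to Ugt2b1 next to it. Against vehicle the change of 0.30 ± 0.06 was called (0.00155), but not in the values as deposited (0.14) or after equal-median scaling (0.17). Ugt2b5, named as the family's highest mean signal, was at 11.37 to 11.54 with Jnk1 shRNA, 11.37 to 11.43 with GFP shRNA and 11.37 to 11.45 in vehicle livers and was not called (0.07 ± 0.05). In the values as deposited its change was -0.08. These genes are near copies of each other, and how far a probe set reads its neighbours was not tested.

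Ugt2b38 and Ugt2b37 varied widely among the controls. In Jnk1 shRNA livers Ugt2b38 was at 6.34, 6.08, 5.78, 6.25 and 5.61, against 6.31, 8.49, 8.23 and 8.20 in GFP shRNA livers and 9.33, 6.82, 7.39, 8.92 and 8.68 in vehicle livers. GFP shRNA array 1 lay within the Jnk1 shRNA range, and vehicle array 2 was close to it. Ugt2b38 was at 28.7% of the GFP shRNA level (-1.80 ± 0.48, adjusted p = 0.00878) and 21.5% of the vehicle level (-2.22 ± 0.45, 0.00103). The ranges overlapped with GFP shRNA and not in vehicle livers, and with the spike-in covariate neither value was called (-1.55 and -1.97, adjusted p = 0.196 and 0.0807). Signals of Ugt2b37 were 8.08, 8.63, 7.87, 8.48 and 7.87 with Jnk1 shRNA, against 7.50, 9.99, 10.13 and 9.98 with GFP shRNA and 10.16, 7.26, 6.43, 9.87 and 9.47 in vehicle livers. Low Ugt2b37 values came from GFP shRNA array 1 and vehicle arrays 2 and 3, the same control arrays that were lowest for Ugt2b38. Ugt2b37 was not called in any comparison (-1.21 ± 0.69 against GFP shRNA, 0.192).

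**Figure D4:**
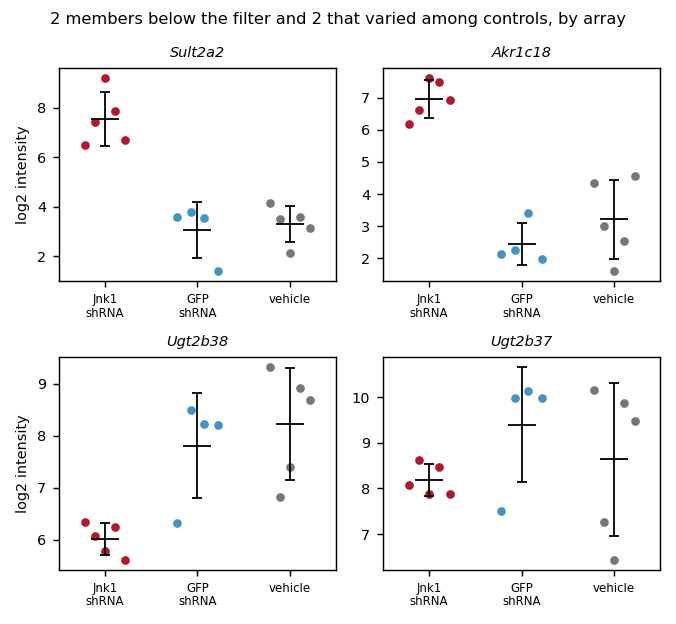
Log2 intensity by array (y axis) of Sult2a2 and Akr1c18, which are below the filter on mean signal, and of Ugt2b38 and Ugt2b37, with Jnk1 shRNA left, GFP shRNA next and vehicle right; bars give mean and SD. Sult2a2 and Akr1c18 lie above 6 only on the Jnk1 shRNA arrays, while the controls of both Ugt genes spread over 2 or more log2 units.

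Among the sulfotransferases, Sult1a1, the main phenol sulfotransferase and named as the family's highest mean signal, fell to 47.6% of the GFP shRNA level. Sult1a1 read 9.93, 9.76, 9.43, 9.63 and 10.02 on the Jnk1 shRNA arrays, 11.02, 10.84, 10.63 and 10.81 with GFP shRNA and 11.003, 11.05, 11.25, 11.32 and 11.36 in vehicle livers. The 3 groups were ordered with Jnk1 shRNA lowest and apart from the others (-1.07 ± 0.11 against GFP shRNA, adjusted p = 3.98e-06; -1.44 ± 0.11 against vehicle, 4.84e-08). GFP shRNA and vehicle overlapped, and their difference was not called (-0.37 ± 0.11, 0.113). Sult1b1, which sulfates thyroid hormone and phenols, was read at a lower signal. The arrays gave Sult1b1 values of 6.05, 5.90, 5.78, 6.18 and 6.03 with Jnk1 shRNA, 6.59, 7.24, 6.82 and 6.84 with GFP shRNA and 6.93, 6.98, 7.09, 6.84 and 6.99 in vehicle livers. It fell by 0.89 ± 0.13 against GFP shRNA (adjusted p = 5.95e-05), with no overlap. Sult1b1 follows the Ugt2 genes on chromosome 5.

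Sult5a1 fell in the Jnk1 shRNA livers while its GFP shRNA values stood highest. In Jnk1 shRNA livers Sult5a1 was at 7.43, 6.94, 7.22, 6.83 and 7.21, against 8.40, 8.80, 8.37 and 8.49 in GFP shRNA livers and 8.28, 8.07, 8.002, 7.74 and 7.89 in vehicle livers. No group overlapped another. Sult5a1 was at 38.2% of the GFP shRNA level (-1.39 ± 0.14, 1.74e-06) and 54.6% of the vehicle level (-0.87 ± 0.13, 5.82e-05). Its difference between GFP shRNA and vehicle was 0.52 ± 0.14 and not called (adjusted p = 0.0576). With GFP shRNA higher than vehicle, the size of its fall depends on the control chosen.

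Sult1c2, a sulfotransferase of phenols, rose where 3 of the 5 kept Sult members fell. Signals of Sult1c2 were 6.78, 7.19, 7.50, 7.43 and 7.36 with Jnk1 shRNA, against 6.34, 5.37, 5.22 and 5.86 with GFP shRNA and 5.41, 6.06, 5.58, 6.08 and 5.72 in vehicle livers. The lowest Jnk1 shRNA array, 6.78, was above the highest control, GFP shRNA array 1 at 6.34. Sult1c2 was 2.94-fold higher than with GFP shRNA (log2 1.56 ± 0.22, adjusted p = 5.66e-05), the largest rise among the 55 kept members. Sult1d1, of catecholamine sulfation in the mouse, was not called on its brightest probe set (0.32 ± 0.14 against GFP shRNA, adjusted p = 0.0923; 0.01 ± 0.13 against vehicle). A second Sult1d1 probe set was called higher in both (0.53 ± 0.12 and 0.54 ± 0.12), so the probe sets disagreed.

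The filter works on the mean over all arrays, and 2 of the 13 members under it stood out when the fit was repeated without a filter over 22626 probe sets. They were singled out after their values were seen. Sult2a2 belongs to the sulfotransferases of bile acids and steroids, which are higher in female mouse liver. Sult2a2 read 6.51, 7.43, 9.22, 7.88 and 6.70 on the Jnk1 shRNA arrays, 3.57, 3.77, 3.53 and 1.39 with GFP shRNA and 4.14, 3.52, 2.15, 3.59 and 3.13 in vehicle livers. The lowest Jnk1 shRNA array was more than 2 above the highest control array, and the difference was 4.48 ± 0.60 against GFP shRNA (adjusted p = 0.000103) and 4.24 ± 0.57 against vehicle (6.89e-05). With each array left out in turn the first value ranged from 3.92 to 4.74 (adjusted p up to 0.00045).

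Akr1c18 inactivates progesterone as a 20α-hydroxysteroid dehydrogenase. The arrays gave Akr1c18 values of 6.18, 6.60, 7.62, 7.47 and 6.94 with Jnk1 shRNA, 2.13, 2.26, 3.42 and 1.98 with GFP shRNA and 4.34, 3.01, 1.59, 2.55 and 4.55 in vehicle livers. Again no Jnk1 shRNA array came near a control array. The difference was 4.51 ± 0.56 against GFP shRNA (adjusted p = 5.34e-05) and 3.75 ± 0.53 against vehicle (0.000106), and 4.35 to 4.84 against GFP shRNA with each array left out. The filter lay at an intensity of 28.4, and the control means of both genes were under it. The direction is clear from the arrays, but the size of these folds is uncertain. The other 11 members under the filter were not called in any comparison. Among them Sult1e1, the estrogen sulfotransferase, gave -1.87 against vehicle (adjusted p = 0.0789).

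The called members did not move equally far on all Jnk1 shRNA arrays. Of the 14 members called lower against GFP shRNA, Jnk1 shRNA array 3 was the lowest of its group for 9: Adh4, Aldh6a1, Ces1g, Ugt2a3, Ugt2b1, Ugt3a1, Ugt3a2, Sult1a1 and Sult1b1. Array 4 was lowest for 3, arrays 2 and 5 for 1 each, and array 1 for 0. Array 3 was also highest of its group for Sult2a2 and Akr1c18. For the 16 members called higher, no array dominated, with arrays 2 and 3 highest for 5 each. The spike-in level of array 3, 8.31, lay within its group's range of 7.89 to 8.76, and array 1 had the lowest. Without array 3 the calls of these 9 members against GFP shRNA held. How often array 3 was lowest among all genes called lower was not counted, so its place here may not be particular to the members. Some of the 9 are also neighbours in the genome.

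Genes that direct or feed these enzymes were taken from lists written with earlier results of these data known. Over all 8027 genes, 17.7% were higher and 16.5% lower against GFP shRNA, and 19.3% each against vehicle. Whether any list here or below differed from these shares was not tested. Among 18 kept nuclear receptors and regulators, 2 were higher and 6 lower against GFP shRNA, and 2 and 8 against vehicle. Nr1i3, which encodes the drug-sensing receptor CAR, fell by 1.39 ± 0.17 against GFP shRNA and by 1.84 ± 0.16 against vehicle. Hnf4a, a regulator of hepatocyte genes, fell by 0.52 ± 0.07, and the D-box factor Dbp by 2.03 ± 0.38. Nr0b2, the bile-acid-induced repressor SHP, was higher by 2.20 ± 0.48 (log2 differences against GFP shRNA). The Dbp ranges of Jnk1 shRNA and GFP shRNA overlapped: GFP shRNA array 2 read 6.35, below Jnk1 shRNA array 1 at 6.56. Tef, a relative of Dbp, fell by 1.18 ± 0.17 against vehicle.

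Among 13 kept genes of cofactor supply and conjugate removal, 3 were higher and 4 lower in each Jnk1 comparison. The shares of all genes were 17.7% higher and 16.5% lower against GFP shRNA, and 19.3% each against vehicle. Papss2, which makes the sulfate donor of the Sult enzymes, fell by 0.77 ± 0.07 against GFP shRNA, and the sulfate carrier Slc26a1 by 0.51 ± 0.11. The sulfatase Arsa fell by 0.81 ± 0.12 and the β-glucuronidase Gusb by 0.43 ± 0.11. Ugdh, which makes the sugar donor of the Ugt enzymes, rose by 0.50 ± 0.09 against vehicle and by 0.32 ± 0.09 against GFP shRNA. Papss2 was thus lower beside 3 of 5 kept Sult members, while Ugdh was higher where 5 of 8 kept Ugt members were lower.

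Among 30 kept genes of other non-P450 oxidation, reduction and hydrolysis, 9 were higher and 6 lower against GFP shRNA, and 8 and 9 against vehicle. Of all genes, 17.7% were higher and 16.5% lower against GFP shRNA, and 19.3% each against vehicle. The carbonyl reductase Cbr1 rose by 2.54 ± 0.12 against GFP shRNA and the retinol and steroid dehydrogenase Hsd17b6 by 1.78 ± 0.10. The serum esterase Pon1 fell by 0.55 ± 0.05 and Dpys, of pyrimidine breakdown, by 0.77 ± 0.09. Dpys was also the 1 gene of this list called between GFP shRNA and vehicle (-0.35 ± 0.09, adjusted p = 0.0465). Of 13 kept genes of other conjugation, 1 was higher and 4 lower against GFP shRNA, and 3 and 7 against vehicle. The microsomal glutathione transferase Mgst3 rose by 1.43 ± 0.16 against GFP shRNA, while the amino acid conjugating genes Baat, Glyat and Acsm1 fell by 0.54 ± 0.09, 0.44 ± 0.08 and 0.56 ± 0.10. The methyltransferase Inmt fell by 1.32 ± 0.22 against vehicle.

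Genes that differ between male and female mouse liver were read beside the members. The shares of all genes were again 17.7% higher and 16.5% lower against GFP shRNA, and 19.3% each against vehicle. Of 9 female-predominant genes on the array, only 5 passed the filter. Of these 5, 4 were higher in each Jnk1 comparison: Cyp2b9 (3.45 ± 0.37 against GFP shRNA), Cyp17a1 (1.89 ± 0.27), Cyp4a14 (1.80 ± 0.39) and Cyp2b10 (0.96 ± 0.24). Cyp2b10 was also higher with GFP shRNA than with vehicle (adjusted p = 0.046). Of 7 kept male-predominant genes, 2 were higher and 3 lower in each Jnk1 comparison. Hsd3b5 read 9.40, 8.49, 6.76, 9.02 and 8.56 with Jnk1 shRNA, against 10.41 to 10.47 with GFP shRNA and 10.38 to 10.86 in vehicle livers, and Slco1a1 fell by 1.52 ± 0.25 against GFP shRNA. Jnk1 shRNA array 3 was lowest for both, as for 9 of the members. Cyp4a12a rose by 1.06 ± 0.20 and Cyp7b1 fell by 0.33 ± 0.09, and Gstp1 rose by 0.36 ± 0.05 against vehicle, where GFP shRNA was also higher by 0.21 ± 0.05 (adjusted p = 0.0306), so the male-predominant list did not move one way. The control arrays low in Ugt2b37 and Ugt2b38 were not low in Hsd3b5 or Slco1a1. How far these genes and the members move together was not tested.

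Position in the lobule and other cell types were read in the same way, beside shares of 17.7% higher and 16.5% lower over all genes against GFP shRNA. Against vehicle those shares were 19.3% each. Pericentral hepatocyte genes had 0 higher and 7 lower of 11 kept against GFP shRNA and 0 and 8 against vehicle: Oat fell by 1.05 ± 0.12, Slc1a2 by 1.20 ± 0.13, Cyp1a2 by 1.19 ± 0.15 and Slc13a3 by 1.23 ± 0.18 against GFP shRNA. Of 6 kept periportal genes 0 were higher and 2 lower against GFP shRNA, Cyp2f2 (-1.77 ± 0.09) and Hal (-1.32 ± 0.12), and 4 lower against vehicle with Pck1 and Cps1. Hepatocyte markers summed to normalised intensities of 54994 to 56802 with Jnk1 shRNA, 57152 to 58925 with GFP shRNA and 57428 to 60007 in vehicle livers, and 0 of 12 were higher and 3 lower against GFP shRNA. Macrophage markers summed to 3263 to 4040 with Jnk1 shRNA, 5497 to 6323 with GFP shRNA and 3174 to 5704 in vehicle livers, with 7 of 11 lower than with GFP shRNA and 4 lower than with vehicle. GFP shRNA itself differed from vehicle in 4 of them, with Mpeg1 and Cd5l higher (1.56 ± 0.16 and 0.86 ± 0.11) and Clec4f and Vsig4 lower (-1.98 ± 0.14 and -2.06 ± 0.18). Endothelial markers summed to 972 to 1177 with Jnk1 shRNA, 1367 to 1675 with GFP shRNA and 1506 to 1575 in vehicle livers (4 and 6 of 9 lower), and stellate markers to 1755 to 1982 with Jnk1 shRNA, 2506 to 2836 with GFP shRNA and 2433 to 2592 in vehicle livers (5 and 3 of 7 lower). Of 3 kept T and NK cell markers, 3 were higher than with vehicle and 0 than with GFP shRNA, with Cd3e, Cd3d, Cd3g, Cd8a, Cd4 and Ncr1 under the filter. Erythroid markers summed to 151 to 251 with Jnk1 shRNA, 553 to 694 with GFP shRNA and 577 to 715 in vehicle livers, with 1 and 2 of 2 kept lower. Cholangiocyte markers Krt19, Krt7, Epcam, Sox9 and Cftr were under the filter, and 0 kept cholangiocyte, B cell or neutrophil markers were called. Of 2 kept adipocyte markers, 1 was higher and 1 lower against vehicle. The part of these shifts in the members' changes was not tested.

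**Figure D5:**
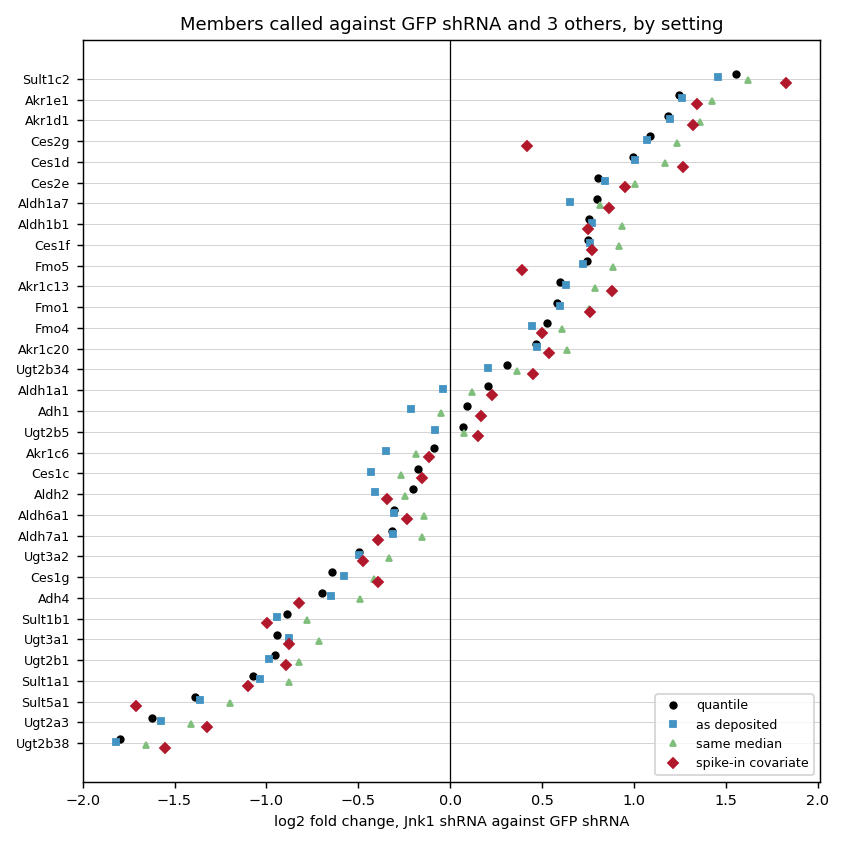
Log2 fold change of Jnk1 shRNA against GFP shRNA (x axis) for the members called in this comparison, and Adh1, Akr1c6 and Ugt2b5, after quantile normalization, in the values as deposited, with arrays scaled to the same median, and after adding each array's spike-in level as covariate. Members with large changes keep their side of 0, while Aldh1a1, Adh1 and Ugt2b5, with quantile values of 0.07 to 0.21, cross it; Ces2g and Fmo5 shrink with the covariate to 0.42 and 0.39.

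Members with bright probe sets and small changes depended on the scaling, as the plot of changes under other settings shows. The signs of Adh1, Aldh1a1 and Ugt2b5 differed between quantile normalization and the values as deposited. The sign of Akr1a1 against vehicle did so too, and that of Akr1c14 against vehicle with the spike-in covariate. No other call changed sign under the alternatives run. Of the 14 members with several kept probe sets, 11 had the same call on all of them against GFP shRNA and 11 against vehicle. The differing genes were Akr1a1, Akr1c20 and Sult1d1 against GFP shRNA, and Akr1c20, Ces1d and Sult1d1 against vehicle. The probe set design also limits some values: those of Fmo5, Ces1f, Ugt2b34 and Ugt3a1 carry the platform's ending for probes shared by several transcripts, and those of Aldh18a1 and Akr7a5 the ending for possible cross-hybridisation.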

How the data were processed

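Total liver RNA of 14 samples was hybridised to 1-colour arrays of 22690 probe sets. The deposited values are linear intensities scaled by the authors to a common trimmed mean, as the values themselves show; which software, background correction or detection calls were used is not given in the sources here. Array medians spanned 0.482 on the log2 scale, so arrays were quantile-normalised, intensities were floored at their 5th percentile (2.01), and log2 was taken. After 64 control probe sets were removed, the filter dropped, of 22626 remaining probe sets, the dimmest 40% by mean (intensity under 28.37). Probe sets were named by the platform annotation of 2016, and all 68 members matched RefSeq symbols.

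A mean for each of the 3 groups was fitted to the 13575 kept probe sets with limma 3.58.1 (R 4.3.3) and intensity-trended eBayes, with 11 residual degrees of freedom and 4.94 prior ones. Adjusted p-values are Benjamini-Hochberg over all kept probe sets. The number of arrays limits the precision. Exact permutation tests were used for single values. The fitting script was tested on simulated data. Figures were drawn with matplotlib 3.10.9.

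The members, families and gene lists were chosen with earlier results of these data known. In each comparison up to 10 members that rose most and 10 that fell most were named among called members whose groups did not overlap, with each family's member of the highest mean, and up to 4 called genes of each pathway list. Others are given by counts, ranges or values. Alternatives were other scalings, filters, variance models and probe set rules, a replicate block, each array left out, and the spike-in level as a covariate.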

Additional observations from a re-analysis of the deposited data

Results flagged for a closer look

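In 93 groups of 4 or 5 arrays of the named members, 8 held an array far from the rest of its group by Dixon's criterion, which chance gives in about 1 of 20 groups. Jnk1 shRNA array 3 was one of these arrays for 3 genes: it read 8.16 for Ugt3a1 (others 8.68 to 8.77), 10.17 for Ugt3a2 (others 10.37 to 10.40) and 11.78 for Akr1c6 (others 12.04 to 12.09). GFP shRNA array 1 read 6.31 for Ugt2b38, where the others read 8.20 to 8.49. GFP shRNA array 2 read 9.47 for Ces1f (others 9.81 to 9.88), and GFP shRNA array 5 read 1.39 for Sult2a2 (others 3.53 to 3.77). Vehicle array 2 read 8.77 for Ces1g (others 9.36 to 9.50), and vehicle array 3 read 10.27 for Adh4 (others 9.97 to 10.04).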

How the results depend on the processing

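Over 73 results of called members and of Adh1, Akr1c6 and Ugt2b5, 934 of 1020 values under 14 alternatives kept their direction and side of the threshold, as did 1005 of 1022 with 1 array left out. The values that changed sign were small. Adh1 gave -0.213 in the deposited values and -0.0513 with medians made equal against GFP shRNA, and -0.228 and -0.199 against vehicle. Aldh1a1 gave -0.0405 in the deposited values against GFP shRNA, and -0.0576 there and -0.0286 with medians made equal against vehicle. Ugt2b5 gave -0.0849 in the deposited values against GFP shRNA, and -0.139 and -0.110 with those scalings against vehicle. Against vehicle, Akr1a1 gave -0.0524 and -0.0233 with those scalings, and Akr1c14 gave 0.0477 with spike-in level added as covariate. The cause was not tested.

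Scaling to the same median left 8 members lower against GFP shRNA. With spike-in level added as covariate, 2172 probe sets were called against GFP shRNA and 2858 against vehicle, where the fit without it gave 4497 and 5099. Since the spike-in level set all Jnk1 shRNA arrays apart from the others, the covariate and the hairpin cannot be told apart. With only the Jnk1 shRNA array of the highest spike-in level kept, an alternative chosen after seeing the data with 1 array assumed to vary like the other groups, 1342 and 1919 probe sets were called. That fit called 10 members higher and 9 lower against GFP shRNA, 11 higher and 10 lower against vehicle, and 212 probe sets and 0 members lower between GFP shRNA and vehicle. Testing 1 probe set per gene, with fewer features tested, gave 2790 and 3128. Between GFP shRNA and vehicle, 350 probe sets were called, or 209 with 0 members lower when only those groups were fitted. There, 1 member was called higher in the values as deposited, with a pseudocount of 16, with array weights and with the spike-in covariate, against 0 in the main analysis.

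With each array left out, members called higher and lower were 15 to 17 and 13 to 15 against GFP shRNA, 17 to 18 and 17 to 19 against vehicle, and 0 to 1 and 1 to 2 between GFP shRNA and vehicle. Probe sets called were 3862 to 4574, 4579 to 5475 and 198 to 381, the last lowest without GFP shRNA array 5. Members lower between GFP shRNA and vehicle were 2 without GFP shRNA array 1 or 3. Mapk8 changed by -1.39 to -1.27 against GFP shRNA and -1.47 to -1.35 against vehicle.

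Samples share replicate numbers between groups. Correlations of same-numbered residuals were -0.099 to 0.079, -0.073 to 0.121 and -0.235 to 0.12 for Jnk1 shRNA with GFP shRNA, Jnk1 shRNA with vehicle and GFP shRNA with vehicle, and 2, 2 and 1 samples correlated best with their own number. With the replicate number as a block, 4101, 4825 and 247 probe sets were called, and 16 members were higher and 14 lower against GFP shRNA, 18 and 19 against vehicle. Mapk8 changed by -1.33 and -1.40 in that fit. None of the 73 results of called members and of Adh1, Akr1c6 and Ugt2b5 changed under the block. The 19 members lower against vehicle compare with 18 in the main fit. Members under the filter, with control signals near the floor, have folds of uncertain size.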
